A study of Mus musculus with 14 samples.

Results

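The hippocampus and the heart of adult C57BL/6 mice were compared gene by gene on Affymetrix mouse genome arrays. The samples were taken by the age and tissue in their labels: of 14 arrays in the series, 8 carried adult RNA, and these stood for 4 of the 10 biological samples. Each adult tissue had 2 biological replicates, each hybridized on 2 technical arrays that were averaged. Both adult groups were male and 10 weeks old, with no treatment or engineered allele named, and their RNA was bought from Zyagen, a tissue RNA supplier. The other 6 arrays held hippocampus and heart of C57BL/6 pups aged 7 days, 3 arrays a tissue, whose sex was not given. The labels do not state whether the replicates of an adult tissue were from different animals, and the study's methods word the source as a single mouse. Some labels number the 4 adult arrays of 1 tissue as if all were biological replicates. The p-values thus reflect only how far these samples lie apart, and that distance may be technical. In the main test, p-values and standard errors also draw on the spread among the pup samples. They do not measure the spread of the adult replicates alone. Values are log2 expression values, so a difference of 1 is a 2-fold change, and every difference is hippocampus minus heart.

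The heart is built mainly from cardiomyocytes, cells whose thick myosin and thin actin filaments slide past each other when calcium is released from the sarcoplasmic reticulum, and whose mitochondria burn mostly fatty acids. The hippocampus is a forebrain structure of excitatory and inhibitory neurons, which signal by fusing vesicles at synapses, together with astrocytes, myelinating oligodendrocytes and microglia. Both tissues were measured in bulk, so fewer cells of a type and less RNA per cell cannot be told apart.

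Of 34958 probe sets that name 1 gene, 7967 (22.8%) passed the test between the adult tissues, 3882 higher and 4085 lower in hippocampus. Each of the 18194 genes was then represented by its probe set with the highest mean over all arrays. By this measure 1821 genes (10.0%) were higher in hippocampus and 2002 (11.0%) were lower, at an adjusted p under 0.05 from limma. The median difference over all genes was -0.03. The median size of a called difference was 1.63 for the higher and 1.64 for the lower genes, and 37 genes were higher and 47 lower by more than 4. All 4 hippocampus arrays lay above all 4 heart arrays for 3145 genes (17.3%) and below them for 3196 (17.6%). With 1 adult sample left out, the number of called genes fell from 3823 to 2168 (without hippocampus replicate 1), 1796 (hippocampus replicate 2), 2003 (heart replicate 1) and 1996 (heart replicate 2).

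The array medians were 8.83 to 8.87 in hippocampus and 8.93 to 8.98 in heart. Across probe sets, which are not independent, arrays of different tissues had a mean Pearson's r of 0.858. Technical arrays of 1 replicate had 0.957 in hippocampus and 0.935 in heart, and arrays of different replicates had 0.948 and 0.940. Standard errors of the gene differences had a median of 0.37, and the pup samples shared in setting them. Slc32a1, the vesicular GABA transporter gene, had an SE of 0.87. Its SDs were 0.22 and 0.13 in adult hippocampus and heart, and 1.0 and 1.56 in those of pups. In 2225 genes a pair of technical arrays lay more than 2 apart. For the calcium channel gene Cacna1a in hippocampus, the gap went with the array number. The first arrays of the 2 replicates had 10.47 and 10.83, and the second had 12.67 and 12.65. The replicate means, 11.57 and 11.74, do not show this.

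Promoters are shown for 6 genes chosen, with their differences known, because they carry the motif marked: the hormone and transport genes Sst, Chgb and Kif5c, all higher in hippocampus by more than 4, and the contractile genes Actc1, Myl3 and Myl7, all lower by more than 3. Each is the 100 bases before the first start listed in RefSeq (GRCm38.p6), written 5′ to 3′ on the strand of the gene. Capitals mark TGACGTCA, the full cAMP response element, which reads the same on both strands, in the first 3 sequences. In the last 3 they mark a CArG box, the A/T-rich element bound by serum response factor.
Sst (chr16:23890845-23890944, minus strand): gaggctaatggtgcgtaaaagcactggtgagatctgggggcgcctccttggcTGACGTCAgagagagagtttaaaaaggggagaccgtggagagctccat
Chgb (chr2:132781542-132781641, plus strand): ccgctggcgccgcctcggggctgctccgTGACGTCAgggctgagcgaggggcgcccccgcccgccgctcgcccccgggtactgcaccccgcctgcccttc
Kif5c (chr2:49619186-49619285, plus strand): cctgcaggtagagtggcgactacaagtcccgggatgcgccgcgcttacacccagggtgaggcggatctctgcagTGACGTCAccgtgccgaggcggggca
Actc1 (chr2:114052876-114052975, minus strand): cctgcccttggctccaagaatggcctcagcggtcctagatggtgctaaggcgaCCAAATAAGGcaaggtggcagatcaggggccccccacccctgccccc
Myl3 (chr9:110763578-110763677, plus strand): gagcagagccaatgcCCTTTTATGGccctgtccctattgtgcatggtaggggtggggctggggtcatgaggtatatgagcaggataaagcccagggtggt
Myl7 (chr11:5898783-5898882, minus strand): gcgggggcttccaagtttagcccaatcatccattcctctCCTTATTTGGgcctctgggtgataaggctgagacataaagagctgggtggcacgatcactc

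The motif shares were counted over the 250 bases before the start on both strands, for the 14453 genes that have a RefSeq promoter. The full cAMP response element stood in 2.27% of all these promoters, in 4.64% of genes higher in hippocampus by more than 2 (21 of 453) and in 6 of the 28 higher by more than 4. Those 6 were Chgb, Gpm6b, Kif5c, Klc1, Ndufb2 and Sst. The element also stood in 4 of 63 promoters of the oxidative phosphorylation list (6.35%). A CArG box stood in 1.21% of all promoters and in 5 of 21 promoters of thick and thin filament genes (Acta1, Actc1, Myl3, Myl7 and Myom1), all 5 lower in hippocampus. Among all genes lower by more than 2, the box stood in 2.57% (13 of 505), and in 1 of the 39 lower by more than 4. The Z-disc list had it in 5 of 22, but there Fhl2 and Vcl were lower while Dmd, Ldb3 and Lmcd1 did not pass. The median number of CpG dinucleotides was 13 over all promoters, 16 for genes higher by more than 2 and 9 for genes lower by more than 2, and beyond a difference of 4 it was 13.5 for the 28 higher and 5 for the 39 lower genes. These matches describe letters in a window and not bound sites, and the genes were grouped by the differences reported here.

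**Figure D1:**
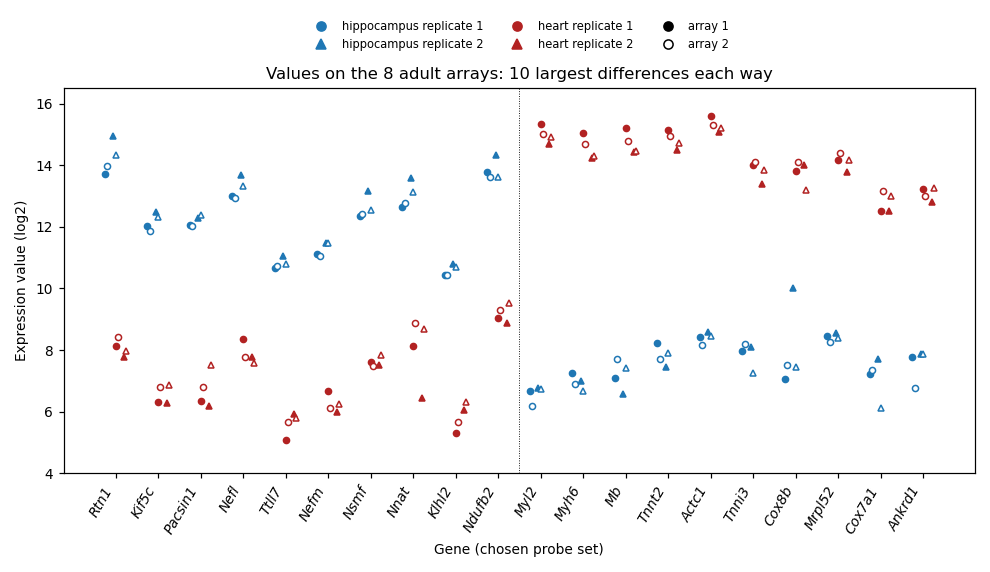
Log2 expression values (y axis) of the 10 genes with the largest differences each way (x axis, split by the dotted line) on the 8 adult arrays, blue for hippocampus and red for heart, circles for replicate 1 and triangles for replicate 2, filled for technical array 1 and open for array 2. The arrays of the 2 tissues do not overlap for any of these 20 genes, and Myl2 shows the widest gap, from 6.60 in hippocampus to 14.99 in heart on average.

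Genes of the neuronal cytoskeleton, axonal transport and adhesion formed the list with the largest share of members higher in hippocampus. Of 39 measured members, 22 were higher (10.0% of all genes were), 0 were lower and 17 did not pass, and the median difference was 1.93. Rtn1, a reticulon of the neuronal endoplasmic reticulum, had the largest difference of the higher genes by the chosen probe sets, although a probe set of Mbp that was not chosen for its gene differed by 7.28. Its samples were at 13.85 and 14.63 in hippocampus and at 8.27 and 7.87 in heart, a 72.0-fold difference (log2 difference 6.17 with an SE of 0.36, adjusted p = 5.79e-05). Kif5c, a kinesin motor of axonal transport, stood at 11.96 and 12.40 against 6.56 and 6.58 (48.8-fold), and its replicates were much closer than the tissues. The neurofilament genes Nefl and Nefm, whose proteins set axon calibre, were 41.4-fold and 32.6-fold higher. Tubb2b, a tubulin of neurons, was higher by 4.59, the endosomal protein gene Nsg2 by 4.53, and Crmp1, a mediator of growth cone signalling, by 4.06. Mapt, which encodes the microtubule protein tau, had 12.70 and 13.37 in hippocampus and 10.82 and 10.68 in heart (4.9-fold). Nefh, the heavy neurofilament gene, did not follow them on this array, with 11.80 and 12.59 against 12.13 and 12.23 (difference 0.01, adjusted p = 0.994). In the fits that each left out an adult sample, 19 to 20 members were called higher.

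Other genes among the 10 largest were Pacsin1, an endocytosis protein of neurons (44.7-fold), Ttll7, which adds glutamate chains to tubulin (36.8-fold), Nsmf, a messenger from synapse to nucleus (32.3-fold), the imprinted gene Nnat (31.8-fold) and the ubiquitin ligase adaptor Klhl2 (26.8-fold). The heart means of Kif5c, Pacsin1, Ttll7, Nefm and Klhl2 lay below the 10th percentile of every adult heart array, so these folds are of deposited values not shown to stand above background in heart. Nnat had a wide heart replicate, with technical arrays of 6.45 and 8.70, which still lay below the lowest hippocampus array at 12.66. The last of the 10 was Ndufb2, a complex I subunit, at 13.84 ± 0.20 (SD, n = 2) in hippocampus and 9.19 ± 0.01 in heart. Its other 2 probe sets had differences of -0.14 and -0.73 and did not pass, so the call rests on 1 of 3 probe sets.

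Transmitter release genes were higher in part. Of 28 measured members, 9 were higher (32.1%, against 10.0% of all genes), 0 lower and 19 did not pass (median 0.94). Of the SNARE genes that drive vesicle fusion, Snap25, Stx1a and Vamp2 were called and Vamp1 did not pass (1.31). Snap25 had 11.12 and 11.23 in hippocampus and 7.18 and 6.66 in heart, 19.1-fold apart (adjusted p = 9.95e-05), and both of its probe sets were called. Vamp2, the vesicle SNARE, was 15.1-fold higher, and Rab3c, a vesicle GTPase, 21.7-fold, although 1 of the 5 Rab3c probe sets was lower in hippocampus by 2.17. Unc13a, which primes vesicles, was 8.2-fold higher. Slc17a7, the vesicular glutamate transporter of excitatory neurons, stood at 13.56 and 12.40 against 10.30 and 9.82 (adjusted p = 0.0349). Other classical members did not pass. Syn1, a vesicle phosphoprotein, was at 13.25 and 14.11 in hippocampus and at 13.54 and 13.42 in heart, so the tissues overlapped on its only probe set. Sv2a, a vesicle glycoprotein, stood at 15.23 and 15.69 against 15.12 and 15.63, near the highest values of an array in both tissues.

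On the receiving side of the synapse, 14 of 41 measured genes of the postsynaptic density and glutamate receptors were higher (34.1%, against 10.0% of all genes). Lower was 1 (Nlgn1, an adhesion protein of the postsynapse, -1.06), and 26 did not pass (median 0.58). Gria1, an AMPA receptor subunit, had 11.49 and 11.73 in hippocampus against 7.81 and 7.31 in heart (16.6-fold). Cnih2, an auxiliary subunit of AMPA receptors, was 11.1-fold higher, Ncdn, a dendritic regulator of glutamate signalling, 12.7-fold, and Dlg3, a scaffold of NMDA receptors, 6.7-fold. Gria2 was higher by 1.77 on its chosen probe set and by up to 4.20 on the other 2, all called. Grin2b, an NMDA receptor subunit, did not pass on its brightest probe set (0.91, adjusted p = 0.0988), while another of its 4 probe sets was higher by 2.94. Nrgn, a calmodulin-binding protein of dendrites, gave 15.51 and 15.27 in hippocampus and 15.47 and 15.44 in heart on its only probe set, and the tissues could not be separated.

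GABA signalling and neuropeptide genes followed with 7 of 17 and 9 of 25 members higher and 0 lower in each (medians 0.65 and 0.52), and 4 to 6 of the GABA genes and 8 of the neuropeptide genes were higher with any 1 adult sample left out. The shares higher, 41.2% and 36.0%, stand against 10.0% of all genes. The astrocytic GABA transporter Slc6a11 was 12.1-fold higher, with 11.39 and 11.52 in hippocampus and 8.55 and 7.17 in heart, where the replicates lay further apart than in hippocampus. Another of its probe sets was lower by 2.57. Gabra5, a receptor subunit abundant in hippocampus, was 9.4-fold higher, and Slc12a5, the chloride exporter that makes GABA inhibitory, 7.3-fold. The vesicular GABA transporter Slc32a1 was 10.9-fold higher (adjusted p = 0.0197), but that p was 0.0727 to 0.102 with any 1 adult sample left out. Sst, the somatostatin of a class of interneurons, was even between replicates, at 11.01 and 11.04 in hippocampus and 7.09 and 6.65 in heart (17.8-fold). Chgb, a granule protein that is stored with peptide hormones, was 21.2-fold higher, Scg5, a chaperone of prohormone convertase, 15.3-fold, and Cck, the peptide cholecystokinin, 10.2-fold. Of these, Sst and Chgb carry the cAMP response element printed above.

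Of 28 ion channel genes chosen as neuronal, 4 (14.3%, against 10.0% of all genes) were higher (Kcnc2, Cacna1a, Scn3a and Asic2) and 1 lower (Kcnf1), with a median of 0.26. With any 1 adult sample left out, 1 to 3 were higher, and the calls of Scn3a and Kcnf1 were lost in 3 and 2 of these 4 fits. Kcnc2, a potassium channel of fast-spiking neurons, was 10.9-fold higher. Cacna1a, a calcium channel of presynaptic terminals, was higher by 1.68 (adjusted p = 0.0447), but its technical arrays were 2.20 apart and no leave-out fit called it (adjusted p 0.0673 to 0.242). Scn2a, a sodium channel of axons, was at 14.74 against 14.39 on its brightest probe set and did not pass, and at 10.06 against 5.89 on another, which did.

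Genes that mark fields and cell layers of the hippocampus gave 9 of 26 higher (34.6%, against 10.0% of all genes). Lower were 3 (11.5%, against 11.0% of all genes), and the median was 0.55. Stxbp6, a regulator of SNARE complexes, was 18.0-fold higher, Fibcd1, a marker of CA1, 6.3-fold, and Pou3f1, a transcription factor of pyramidal cells, 6.1-fold. The heart mean of Fibcd1 (5.69) lay below the 10th percentile of every adult heart array and was not shown to stand above background. The lower members were Prox1, the master factor of dentate granule cells (-1.28), the channel gene Trpc6 (-1.46) and the cortical factor Tbr1 (-1.38). Prox1 had 12.10 and 10.99 in hippocampus and 13.19 and 12.46 in heart, and its 3 probe sets ran from -1.28 to 1.71. With any 1 adult sample left out, 3 to 5 members were higher and 0 to 2 lower. Of genes chosen for neighbouring striatum and thalamus, Tcf7l2, Ppp1r1b and Gbx2 were higher and Six3 was lower among 12, and 2 to 3 were higher and 0 to 1 lower in the fits that each left out an adult sample. Tcf7l2, a Wnt effector of the thalamus, was 11.8-fold higher on its brightest probe set and lower by 1.26 and 3.69 on 2 of the other 3.

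Glial genes were higher in part as well. Of 25 astrocyte genes, 10 were higher and 3 lower (median 0.96), and of 22 genes of oligodendrocytes and myelin, 7 were higher and 3 lower (median 0.50). With any 1 adult sample left out, 0 to 1 astrocyte genes and 1 to 2 oligodendrocyte genes were lower. Aldoc, the aldolase of astrocytes, was 18.0-fold higher, at 13.04 and 13.95 against 9.69 and 8.95. Aqp4, the water channel of astrocyte endfeet, was 6.2-fold higher and Bcan, a proteoglycan of the brain matrix, 5.3-fold. Apoe, a lipid carrier, was at 13.94 in hippocampus and 10.74 in heart (9.2-fold, adjusted p = 0.0217, and 0.0619 to 0.127 with any 1 adult sample left out). The lower astrocyte members were Aldh1l1, Acsbg1 and Hapln1, and a second probe set of Aldh1l1 was higher by 2.77. Among oligodendrocyte genes, Tspan2, a tetraspanin of myelin, was 20.3-fold higher, Plekhb1 12.4-fold, Olig1, a transcription factor of the lineage, 12.3-fold, and Mal, a myelin proteolipid, 4.8-fold. The lower members there were Opalin, Nkx6-2 and Pllp.

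Several defining genes of brain did not pass on the brightest probe set although other probe sets of the same gene did. Mbp, the myelin basic protein, had 8 probe sets. The brightest was at 13.70 in hippocampus and 13.09 in heart (0.61, adjusted p = 0.601), with heart replicates of 11.90 and 14.27, while 5 others were higher by 4.03 to 7.28. On the probe set with the largest of these, Mbp stood at 14.65 against 7.37. Camk2a, the main kinase of the postsynaptic density, was -0.75 on the brightest of 6 probe sets, and 4 others were higher by 1.23 to 2.85. For Gfap, the astrocyte filament, the brightest probe set gave -0.32 and 1 of the other 2 was higher by 1.15. The glutamate transporter Slc1a2 gave -0.06, with the highest of its 5 probe sets at 5.43.

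**Figure D2:**
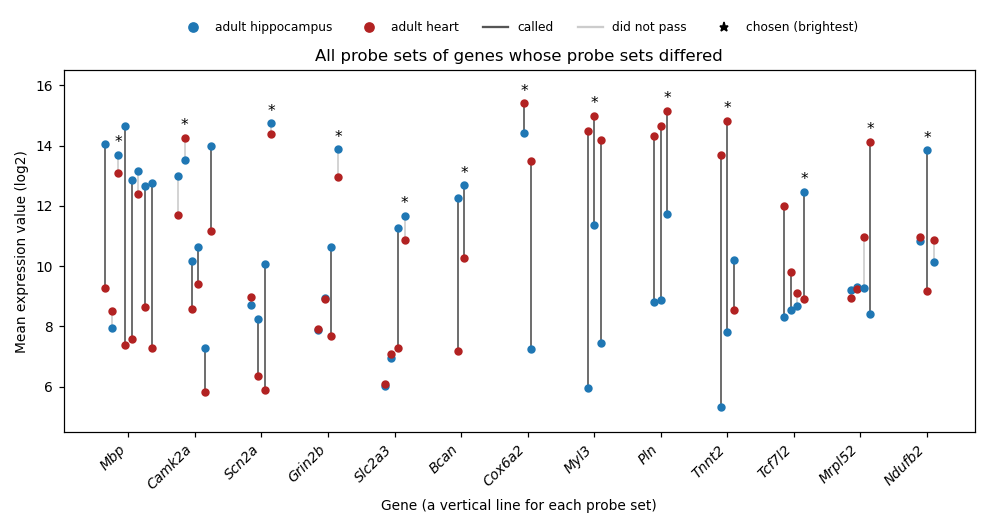
Mean log2 expression value (y axis) in adult hippocampus (blue) and adult heart (red) for every probe set of 13 genes (x axis), joined by a dark line where the difference was called and a pale line where it did not pass, with a star on the probe set that represented the gene. Of the 8 Mbp probe sets, 5 are joined by long dark lines, but the starred one lies at 13.70 against 13.09.

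Over all genes, 9012 had several probe sets, and for 505 of them some probe sets were called higher and others lower. Of the genes whose chosen probe set did not pass, 2545 had another that did. Calls were sparse at the top of the scale: of the 2058 genes with a mean adult level of 14 or more, 1.55% were called, against 27.0% of the 4342 genes between 10 and 12. No value on any array was above 16. Counted by probe sets, the transmitter release list had 26 of 69 higher and 3 lower, the postsynaptic list 30 of 90 and 4, and the myelin list 18 of 45 and 3. Of all 34958 probe sets, 3882 were higher and 4085 lower.

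**Figure D3:**
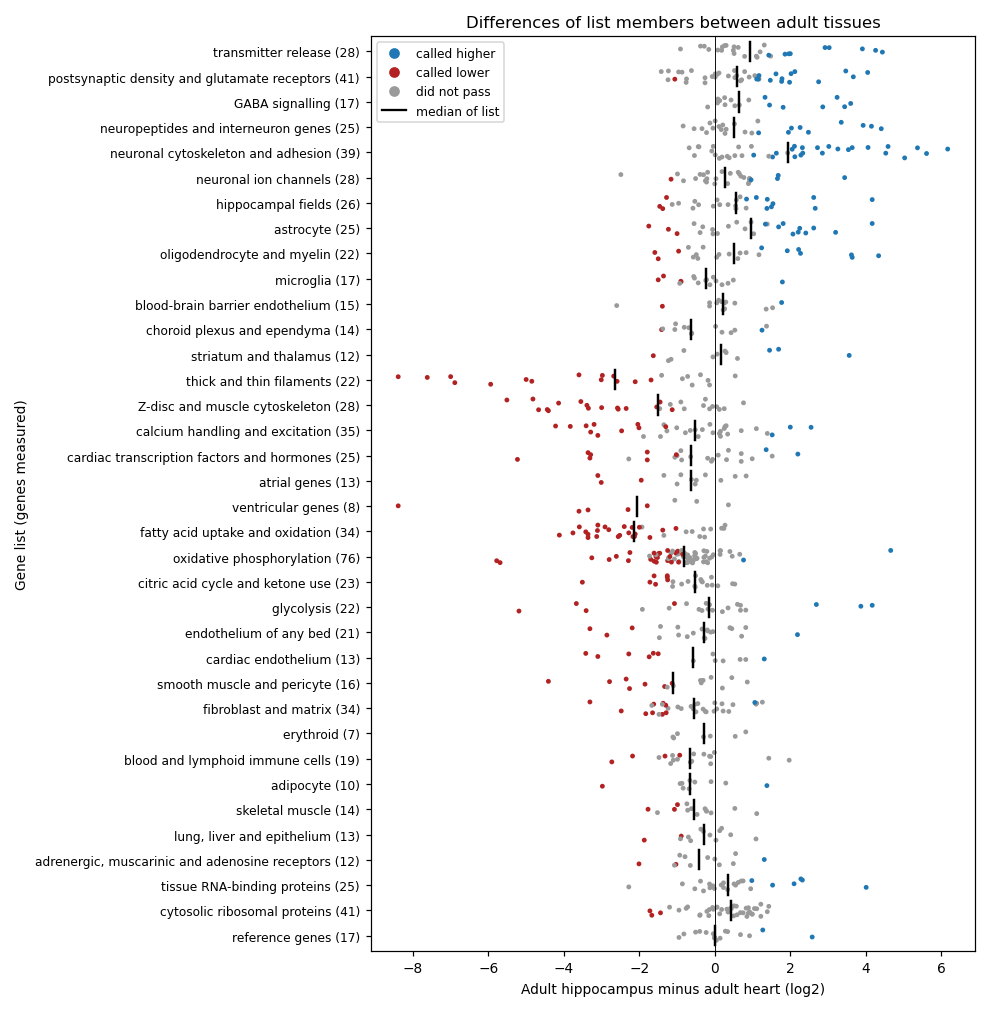
Difference between adult hippocampus and adult heart on the log2 scale (x axis) for each measured member of the gene lists (y axis, number measured in brackets), blue where called higher, red where called lower and grey where it did not pass, with a black bar at the list's median. The neuronal cytoskeleton list has the highest median, 1.93, and the thick and thin filament list the lowest, -2.64.

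The contractile genes of the heart were among the largest differences by the chosen probe sets. Of 22 genes of thick and thin filaments, 14 were lower in hippocampus (11.0% of all genes were), 0 were higher and 8 did not pass (median -2.64). Myl2, the regulatory light chain of ventricular myosin, was at 6.44 and 6.76 in hippocampus and 15.18 and 14.80 in heart (log2 difference -8.39 with an SE of 0.92, adjusted p = 0.000403). Its hippocampus mean of 6.60 lay below the 10th percentile of every adult hippocampus array and was not shown to stand above background, so no fold is given. Myh6, the alpha myosin heavy chain of the adult mouse heart, was at 7.08 and 6.83 against 14.87 and 14.28 (197.2-fold). Cardiac troponin T, Tnnt2, was 128.1-fold lower, cardiac actin, Actc1, 118.6-fold, and cardiac troponin I, Tnni3, 61.4-fold. The hippocampus levels of Myl2, Myh6 and Tnnt2 lay below the array medians, and no heart array of these genes came within 6 of any hippocampus array. Of the Tnnt2 probe sets, 2 were lower by 7.00 and 8.37, and the third was higher by 1.66. Ttn, which encodes the titin spring, had a log2 difference of -5.0, with 4 of 6 probe sets lower and 0 higher. Tnnc1, the calcium-binding troponin, was 28.8-fold lower and 1 of its hippocampus arrays, at 11.69, stood well above the other 3. Myh7, the slow heavy chain, was at 7.33 against 7.93 and did not pass. In each fit without an adult sample, 12 to 13 of the 22 were lower.

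Z-disc and cytoskeletal genes of muscle had 16 of 28 lower (57.1%, against 11.0% of all genes) and 0 higher (median -1.50). Ankrd1, a stress-responsive protein of the sarcomere, had 7.27 and 7.87 in hippocampus against 13.13 and 13.03 in heart (45.5-fold), and both of its probe sets were called. Csrp3, a mechanosensor of the Z-disc, was 28.3-fold lower, Myot, which crosslinks actin, 25.4-fold, Nrap, which anchors filament ends, 21.7-fold, and the intermediate filament gene Des 21.2-fold. The hippocampus means of Myot (5.51) and Nrap (6.2) lay below the 10th percentile of every adult hippocampus array. The folds of both genes are of values not shown to stand above background there. Trim63, a ubiquitin ligase that degrades sarcomere proteins, was lower by 4.14, and Tcap, the cap of titin, by 3.55. Vcl, a junction protein that cells of many tissues express, was lower by 1.45.

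The calcium machinery was lower in part. Of 35 genes of calcium handling and excitation, 10 (28.6%) were lower, 3 (8.57%) higher and 22 did not pass (median -0.52). Over all genes, 11.0% were lower and 10.0% higher. Hrc, a calcium-binding protein of the sarcoplasmic reticulum, had 9.68 and 9.69 in hippocampus and 14.18 and 13.63 in heart (18.7-fold lower). Pln, the inhibitor of the calcium pump, was 10.6-fold lower on the brightest probe set, where technical arrays were up to 2.42 apart, and lower by 5.51 and 5.77 on the other 2. Trdn, which couples the release channel to calsequestrin, was 9.8-fold lower with 4 of 6 probe sets called. Casq2, the calcium store protein itself, was lower by 2.47, and Atp2a2, the pump, by 2.01. Ryr2, the release channel, gave 10.07 and 10.22 against 11.81 and 11.37, a difference of -1.44 that did not pass (SE 0.65, adjusted p = 0.142), although no arrays overlapped. The 3 higher members, Kcnd2, Kcnd3 and Scn4b, encode subunits of potassium and sodium channels that neurons also use.

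Transcription factors and hormones of the heart gave 7 of 25 lower and 2 higher (median -0.64). Corin, the protease that activates natriuretic peptides, was 37.4-fold lower, with 6.76 and 6.77 in hippocampus and 12.02 and 11.96 in heart. Irx5, a homeobox factor of the ventricle, was 10.2-fold lower, Ankrd23 9.9-fold and Gata4, a core cardiac factor, 3.5-fold. Myocd, the coactivator of serum response factor, was 9.8-fold lower, but its heart arrays spread from 8.96 to 12.80, its adjusted p was 0.0387 to 0.0562 with any 1 adult sample left out, and its other probe set was higher by 1.58. Mef2c and Gata5 were higher in hippocampus by 1.36 and 2.20. Nppa, the atrial natriuretic peptide, was at 10.86 and 11.24 against 12.01 and 11.90 and did not pass (-0.90, adjusted p = 0.344). With any 1 adult sample left out, 3 to 5 members were lower and 0 to 2 higher.

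Chamber genes were counted by chamber. Of 8 ventricular genes, 5 (62.5%) were lower in hippocampus (Myl2, Myl3, Irx4, Irx5 and Lbh). Of 13 atrial genes, 3 (23.1%) were lower (Sln, Myl7 and Fgf12), where 11.0% of all genes were. Other probe sets of Fgf12 gave 0.88 and 0.29 and did not pass. Myl3, the essential light chain of the ventricle, was at 11.55 and 11.20 against 15.16 and 14.81 on its brightest probe set (12.2-fold), and at 5.95 against 14.47 on another. Myl7, the atrial light chain, was 8.1-fold lower. Sln, a pump inhibitor of the atrium, was lower by 3.10 (adjusted p = 0.0436), but that p was 0.132 to 0.167 with any 1 adult sample left out. Whether the lists differ was not tested.

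Among metabolic genes, those of fatty acid use were lower in large part. Of 34 genes of fatty acid uptake and oxidation, 23 were lower in hippocampus (67.6%, against 11.0% of all genes), 0 higher and 11 did not pass (median -2.15). Cpt2, the inner carnitine palmitoyltransferase, had 8.64 and 8.0 in hippocampus and 12.19 and 12.68 in heart (17.3-fold lower). Of the dehydrogenases that start each round of oxidation, Acadvl, for very long chains, was 13.6-fold lower and Acadl, for long chains, had a log2 difference of -3.59, while Acadm, for medium chains, did not pass (-1.93). Hadhb, the thiolase subunit of the trifunctional protein, was lower by 3.36. Lpl, which frees fatty acids from lipoproteins, was 8.6-fold lower on both of its probe sets alike (-3.10 and -3.13). Fabp4, a fatty acid carrier of capillary endothelium, was 10.7-fold lower, with 1 hippocampus array at 12.31 and the other 3 between 8.28 and 9.41. With any 1 adult sample left out, 18 to 19 of the 34 were lower.

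Of 76 genes of oxidative phosphorylation, 23 (30.3%, against 11.0% of all genes) were lower and 2 (Ndufb2 and Cox8a) higher, with a median of -0.81. With any 1 adult sample left out, 10 to 13 were lower and 1 higher. The muscle forms of cytochrome oxidase subunits led: Cox8b was 54.8-fold lower and Cox7a1 51.7-fold. Cox8b had 7.29 and 8.73 in hippocampus, where 1 array stood at 10.00, and 13.96 and 13.61 in heart. Cycs, the electron carrier cytochrome c, was 9.6-fold lower with 3 of 4 probe sets called, Atp5g1, a subunit of the ATP synthase rotor, was lower by 2.80, and Cyc1, of complex III, differed by -2.29. The citric acid cycle list had 7 of 23 lower and 0 higher (median -0.53), and 2 were lower with any 1 adult sample left out. Idh2, the mitochondrial NADP-dependent dehydrogenase, was 11.4-fold lower, and its other probe set gave 0.29. Mb, the oxygen store of muscle, was among the largest differences of all, with 7.39 and 6.99 in hippocampus and 15.00 and 14.44 in heart (184.4-fold), and its other probe set, dim in both tissues, gave -0.38. Mrpl52, a mitochondrial ribosomal protein, was 52.9-fold lower on 1 of 4 probe sets, and the other 3 ran from -1.68 to 0.28 and did not pass.

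Of 20 pairs of forms of the same protein, 17 had both forms measured. In 4 of these (cytosolic creatine kinase, enolase, phosphoglycerate mutase and cytochrome oxidase subunit 8) the brain form was higher and the muscle form lower, in 6 the muscle form was lower alone, in 2 the brain form was higher alone, and in 5 neither passed. Cytosolic creatine kinase, which buffers ATP, was higher in hippocampus as the brain form Ckb (13.40 and 14.05 against 10.06 and 9.97, 13.1-fold) and lower as the muscle form Ckm (9.53 and 9.45 against 12.72 and 12.63, 9.1-fold). Its mitochondrial muscle form Ckmt2 was 43.8-fold lower, and the other form, Ckmt1, gave 1.16 (SE 0.48, adjusted p = 0.115). Enolase was higher as the neuronal Eno2 (14.7-fold) and lower as the muscle Eno3 (36.6-fold). Phosphoglycerate mutase was higher as Pgam1 (6.5-fold, adjusted p 0.0331 to 0.0631 with any 1 adult sample left out) and lower as Pgam2 (10.6-fold). Aldolase was higher as Aldoc, while Aldoa, at 14.78 against 15.20, did not pass. Glycogen phosphorylase was lower as the muscle form Pygm (12.7-fold), and the brain form Pygb gave -0.75 and did not pass. Neither form of phosphofructokinase (Pfkp 0.35, Pfkm -1.21) or hexokinase (Hk1 -0.18, Hk2 -1.92) passed. Of the adenine nucleotide translocators, Slc25a4 was lower by 1.73 on its brightest probe set. Other Slc25a4 probe sets gave -2.49 and -2.37, but another was called higher, by 1.95. With 1 adult sample left out, the brightest gave -1.97 to -1.49. Slc25a5 gave 0.87 and did not pass, and another of its probe sets was called at -1.36. For cytochrome oxidase subunits 7a and 8, the muscle forms were lower and the common forms Cox7a2 (-0.53) and Cox8a (0.76) lay near 0 by comparison. The muscle form Cox6a2 differed by -0.98 on its brightest probe set, at 14.43 against 15.41, and by -6.25 on the other. No leave-out fit called Cox8a or the brightest Cox6a2 probe set (adjusted p 0.0905 to 0.235 and 0.0608 to 0.204).

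Outside metabolism, alpha-actinin was lower as the muscle form Actn2 (10.2-fold), with Actn1 at 0.85 (adjusted p = 0.174). The sodium calcium exchanger was higher as Slc8a2 (3.6-fold), and Slc8a1, the cardiac form, gave 0.70 on a probe set whose technical arrays were 2.59 apart and was higher by 2.62 on another of its 4. Of the glucose transporters, Slc2a4, the insulin-responsive form, stood at 15.37 against 15.43, near the top of the scale. Slc2a3, the neuronal form, gave 0.82 on its brightest probe set and 3.98 on another. Across glycolysis and glycogen use, 3 of 22 genes (13.6%, against 10.0% of all genes) were higher: Aldoc, Eno2 and Pgam1. Lower were 4 (18.2%, against 11.0% of all genes): Eno3, Pgam2, Pygm and Ldha.

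**Figure D4:**
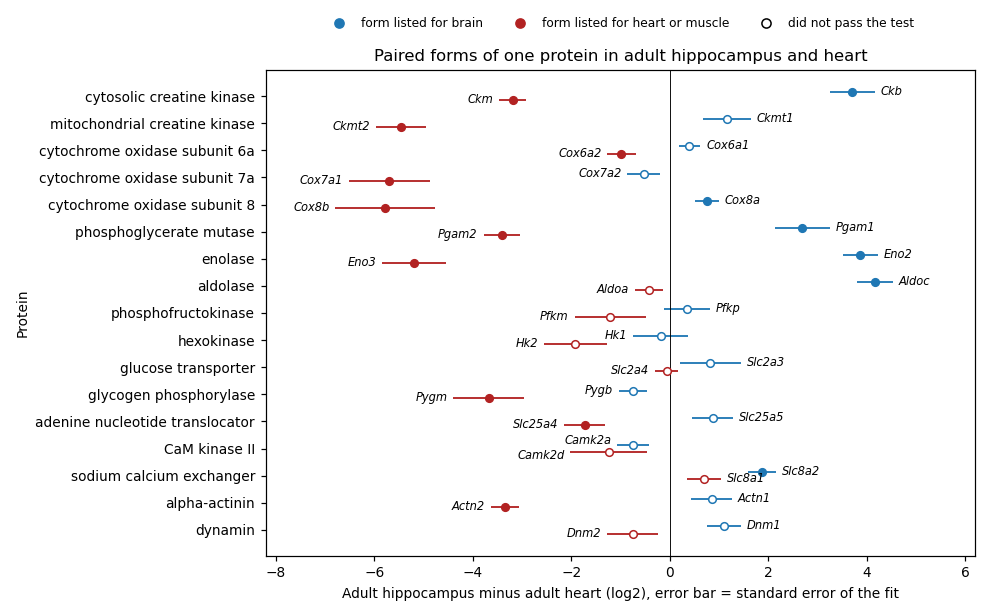
Difference between adult hippocampus and adult heart on the log2 scale (x axis) for paired forms of the same protein (y axis), blue for the form listed for brain and red for the form listed for heart or muscle, filled where the test was passed, with the standard error of the fit as error bar. Cytosolic creatine kinase, enolase, phosphoglycerate mutase and cytochrome oxidase subunit 8 have filled points on both sides of 0, such as Ckb at 3.71 and Ckm at -3.19.

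Vessel, connective tissue and blood genes were counted because both tissues contain them. Of 13 genes of cardiac endothelium, 6 were lower in hippocampus (46.2%, against 11.0% of all genes) and 1 (Npr3) higher. Of 21 genes of endothelium in general, 3 (14.3%) were lower (Egfl7, Robo4 and Cdh5) and 1 higher (Flt1). Egfl7, an angiogenic factor secreted by endothelium, was 9.9-fold lower and Cdh5, the endothelial cadherin, 4.6-fold. Flt1, a VEGF receptor, was higher by 2.19, with heart replicates at 12.31 and 9.86, and by 0.97 to 3.42 with 1 adult sample left out. Another of its probe sets was called lower, by 0.96. Of 15 genes of the blood-brain barrier, Slco1c1, a thyroid hormone transporter, was higher by 1.77 and Slc16a1, a lactate transporter, was lower by 1.39, and the calls of both were lost with any 1 adult sample left out (adjusted p 0.0891 to 0.112 and 0.0719 to 0.231). Smooth muscle and pericyte genes had 7 of 16 lower and 0 higher (median -1.12). Of these, Cnn1, calponin of smooth muscle, was 4.8-fold lower and Des, 21.2-fold lower, is also a cardiomyocyte gene. Fibroblast and matrix genes had 9 of 34 lower and 1 (Fn1) higher (median -0.55), led by Dpt, dermatopontin, 9.9-fold lower, and Nid1, a basement membrane protein, 5.6-fold. Leaving out any 1 adult sample, 3 to 6 of the fibroblast genes, 2 to 5 of the smooth muscle genes and 3 to 4 of the cardiac endothelium genes were lower.

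Microglia genes gave 1 of 17 higher (Ctss) and 3 lower (C1qb, C1qc and Itgam), with a median of -0.24. The share lower was 17.6%, against 11.0% of all genes. C1qc, a complement subunit, was at 13.86 and 13.57 in hippocampus and 15.16 and 15.26 in heart. None of the 4 was called with any 1 adult sample left out. Of genes of blood and lymphoid immune cells, 4 of 19 were lower (2 to 3 with any 1 adult sample left out) and 0 higher (median -0.65), and the mean level of the list on an array ranged from 8.86 to 9.13 in hippocampus and 9.56 to 9.78 in heart. Ptprc, the leukocyte antigen CD45, was 6.6-fold lower and Mrc1, a macrophage receptor, 4.5-fold. No erythroid gene of 7 was called, but the heart arrays of Hba-a1, an alpha globin, ran from 9.25 to 13.66, with technical arrays of 1 replicate up to 3.94 apart.

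Markers chosen for other tissues, and for choroid plexus and ependyma, were mostly not called. Over all genes, 10.0% were higher and 11.0% lower. Of 14 skeletal muscle genes, 3 (21.4%) were lower in hippocampus: Mybpc1, Myh8 and Tnni2, with limma adjusted p of 0.0441, 0.04 and 0.0224. With any 1 adult sample left out these calls were lost, and the differences were -1.99 to -1.55, -1.2 to -0.94 and -1.12 to -0.86. Another probe set of Mybpc1 was called higher, by 2.12. The list's mean level was 8.15 to 8.59 in hippocampus and 8.59 to 8.92 in heart, below the array medians. Of 13 genes of lung, liver and epithelium, Sftpc, the lung surfactant protein C, was 3.7-fold lower, with heart arrays from 8.67 to 11.07 and hippocampus arrays from 7.95 to 8.5, and Krt8, a keratin, was lower by 0.89 (adjusted p 0.0577 to 0.22 with any 1 adult sample left out). The list's mean level was 8.45 to 8.62 and 8.77 to 8.91. Of 10 adipocyte genes, Cidec, a lipid droplet protein, was 7.9-fold lower and Scd1, a desaturase, was higher by 1.38 (adjusted p 0.0381 to 0.147 with any 1 adult sample left out). The choroid plexus and ependyma list had 1 of 14 higher (Clic6) and 1 lower (Kcnj13), with the Clic6 call lost with any 1 adult sample left out (adjusted p 0.0532 to 0.073) and the Kcnj13 call in 2 of these 4 fits. Its best-known gene, Ttr, was at 11.75 in hippocampus and 11.72 in heart. The part of other cells and tissues in the results above was not tested, and no background level was available to call a gene absent. The hippocampus mean of Cidec (6.59) lay below the 10th percentile of every adult hippocampus array and was not shown to stand above background.

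RNA-binding proteins with tissue-restricted roles had 6 of 25 higher in hippocampus (24.0%) and 0 lower (median 0.34). For this and the lists below, 10.0% of all genes were higher and 11.0% lower. Elavl3, a neuronal regulator of mRNA stability, had 12.59 and 13.13 against 9.09 and 8.62 (16.1-fold). Celf2, Celf4 and Elavl4 were 5.0-fold, 4.8-fold and 4.3-fold higher, but of the 7 Celf2 probe sets 1 was lower by 1.21, and with probe sets of multi-match types dropped Celf2 gave -1.79. Cytosolic ribosomal protein genes gave 0 of 41 higher and 3 lower (Rpl3l, Rps2 and Rpsa; 0 to 1 with any 1 adult sample left out) by the chosen probe sets, with a median of 0.42, although 5 genes had another probe set that was higher. Of 17 genes often used as references, Eef1a1, a translation elongation factor, was 6.0-fold higher in hippocampus, at 13.85 and 14.64 against 11.77 and 11.56, and Ywhaz was 2.4-fold higher, a call lost with any 1 adult sample left out (adjusted p 0.0618 to 0.176). Receptors for adrenaline, acetylcholine, adenosine and natriuretic peptides had 1 of 12 higher (Npr3) and 2 lower, Chrm3 by 2.01 and Chrm4 by 1.03, and neither Chrm4 nor Npr3 was called with any 1 adult sample left out.

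The adult tissue difference was then set against that of pups. It was larger or smaller than in pups for 713 genes (3.92%), above the pup difference for 243 and below it for 470, with a median standard error of 0.47. With 1 adult sample left out, 138 (without hippocampus replicate 1), 214 (hippocampus replicate 2), 148 (heart replicate 1) and 230 (heart replicate 2) genes were called. Without 1 pup sample the count ran from 336 (hippocampus replicate 2) to 1101 (heart replicate 2), with 392 and 451 without the hippocampus replicates 3 and 1. Age went with RNA source and preparation, since the study isolated the pup RNA from tissue and bought the adult RNA, and age and preparation cannot be told apart. The mean of 16 hybridization control probe sets was 12.46 to 13.17 on the pup arrays and 10.19 to 10.76 on the adult arrays, and its part in these results was not tested.

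Of the 20 genes with the largest adult differences, 2 (Ttll7 and Nnat) passed this test and 18 did not. In pups Myl2 differed by -6.64, Mb by -6.97 and Rtn1 by 6.93, with no call for any of them, which does not show that the ages were alike. Their SDs in pup hippocampus were 1.95, 1.62 and 0.07, against 0.23, 0.28 and 0.55 in adult hippocampus. Among named neuronal genes that passed, the pup difference was the larger for several: Gabra5 was higher by 7.48 in pup hippocampus and 3.24 in adult, Slc12a5 by 5.31 and 2.86, Elavl3 by 6.37 and 4.01, and Cck by 6.34 and 3.35. Snap25 went the other way, with 2.32 in pups and 4.26 in adults. Of the 22 oligodendrocyte genes, 2 lay above the pup difference (Plekhb1, higher by 0.82 in pups and 3.64 in adults, and Tspan2, by 1.80 and 4.34) and 2 below it (Olig1, with 5.47 and 3.62, and Pllp, with 0.03 and -1.50). Among heart genes, Lpl was lower in hippocampus by 0.83 in pups and 3.10 in adults and Irx5 by 1.21 and 3.36, while the differences of Ckm were -5.37 and -3.19 and those of Trdn -5.97 and -3.29.

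**Figure D5:**
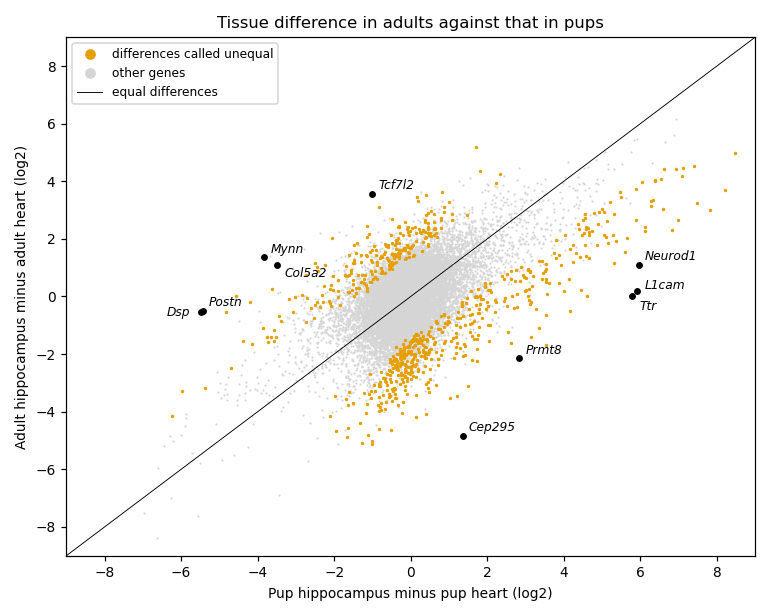
Difference between hippocampus and heart on the log2 scale in adults (y axis) against that in pups (x axis), a point per gene, orange for the 713 genes whose differences were called unequal and grey for the others, with a line where they are equal. The black points are the 5 largest departures each way, such as Cep295, at 1.36 in pups and -4.83 in adults, and Postn, at -5.43 and -0.50.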

How the data were processed

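Labels and the study's methods gave the tissue, age and replicates. Each array had a deposited log2 value for 45101 probe sets, made by the authors with RMA 2.0 by the upper decile of probes, and background correction is not given in the sources used here. They were used as deposited. The value table held 34958 probe sets annotated with 1 gene, 932 with several and 9211 unnamed here. Technical arrays were averaged, and 10 samples entered 1 limma fit (3.58.1, R 4.3.3) with 4 group means, 6 residual and 3.72 prior degrees of freedom. Tests were two-sided, with Benjamini-Hochberg adjustment over all 34958 probe sets at 0.05, and a gene took the call of its brightest probe set. The fit was tested on simulated data. The number of arrays limits precision. Named genes were the 10 largest differences each way, up to 4 called members of each list (all for other cell types), fixed genes, paired forms and the 5 largest departures from pups each way. Genes named beyond this, including opposite members of a list, were chosen after their values were seen, and members and lists were chosen with earlier results of these data known. Promoters came from RefSeq. Alternatives were other scalings, features, filters, fits, tests and left-out samples.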

Additional observations from a re-analysis of the deposited data

Results flagged for a closer look

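For 10 genes the tissue difference in adults departed most from that in pups, by the test of the difference between the 2 differences (limma, adjusted p under 0.05). Above the pup difference were Mynn, a zinc finger protein, by 5.19, Dsp, desmoplakin of cell junctions, by 4.96, Postn, periostin of the matrix, by 4.93, Col5a2, a fibrillar collagen, by 4.61, and Tcf7l2 by 4.57. Of these, Tcf7l2 was higher in adult hippocampus by 3.56. The adult differences of Mynn (1.36), Dsp (-0.53), Postn (-0.50) and Col5a2 (1.11) did not pass on the brightest probe sets. On other probe sets Dsp was lower in adult hippocampus by 3.23, Col5a2 lower by 1.2 and Mynn higher by 1.09, all called. In pups all 5 genes were lower in hippocampus than in heart on average, with differences of -5.43 for Postn and -5.49 for Dsp. Below the pup difference were Cep295, a centriole protein, by -6.18, Ttr, the thyroxine carrier of the choroid plexus, by -5.75, L1cam, an axonal adhesion molecule, by -5.72, Prmt8, an arginine methyltransferase of brain, by -4.98, and Neurod1, a factor of granule neurons, by -4.86. In pups all 5 had the higher mean in hippocampus, Ttr by 5.77 and L1cam by 5.91, and in adults Ttr (0.02) and L1cam (0.19) differed by less than their standard errors, while Cep295 (-4.83) and Prmt8 (-2.14) were lower in hippocampus. Neurod1 was higher by 1.1, a call lost with any 1 adult sample left out (adjusted p 0.106 to 0.146), and the departures of Dsp and Col5a2 were also not called then, with adjusted p of 0.0724 to 0.0792 for Dsp and 0.0662 to 0.0748 for Col5a2. With the mean of all probe sets of a gene in place of the brightest, the departure was 0.07 for Mynn (limma adjusted p 0.931), 1.82 for Dsp (0.118) and 0.58 for Tcf7l2 (0.349), none of them called, and the other 7 were called. Prmt8 stood at 10.97 and 10.94 in adult hippocampus and 12.88 and 13.31 in adult heart. The arrays of Mynn were up to 3.77 apart within an adult replicate. Age and RNA preparation cannot be told apart here.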

How the results depend on the processing

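The main test called 3823 genes between adult tissues and 713 for the departure from pups. The first count was 2227 and the second 423 with only probe sets above the median level, 6359 and 1854 with all 14 arrays as samples, and 5820 and 1636 with the replicate as a random block. Taking the 8 adult arrays as samples gave 6358 genes. With 1 sample left out the ranges were 1796 to 4570 and 138 to 1101. The replicate number, which only names samples in the labels (correlation of deviations -0.049 over 2 pairs), gave 3280 and 417 as a replicate block. The methods' t-test on 4 samples called 0 genes at 0.05 (1 probe set, and 11085 at an unadjusted p under 0.05), and 0 probe sets at a false discovery rate of 0.001, where it called 2448 on the 8 arrays and limma 877. Quantile normalization and percentile scaling gave 3861 and 3868 genes. Of 179 named adult differences 143 were called, and 45 of those calls were lost with some adult sample left out. Directions reversed with the mean of all probe sets for Tcf7l2 (-0.46) and Camk2a (1.27). When probe sets of multi-match types were dropped they reversed for Tnnt2 (1.66), Myocd (1.58), Fgf12 (0.88), Idh2 (0.29), Tnni2 (0.25), Celf2 (-1.79), Ywhaz (-0.57), Gfap (1.15), Slc25a5 (-1.36) and Slc25a4 (1.95), where another probe set stood for the gene.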
